A study of Mus musculus with 4 samples.

Results

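The genes described here are the core of the transforming growth factor beta (TGF-beta) pathway in CD8+ T cells from mouse tumours: the ligand gene Tgfb1, the receptor genes Tgfbr1 and Tgfbr2, the SMAD genes Smad2, Smad3, Smad4 and Smad7, and the repressor genes Ski, Skil and Tgif1. They were chosen by symbol, and all 10 were found among the 24537 genes of the deposited expression table. The cells had infiltrated tumours of B16-GP33, a mouse melanoma line that carries a viral epitope seen by CD8+ T cells, and were taken at day 21. Of the 4 libraries, 2 had the genotype EV, the control, and 2 had the genotype ACSS2NLS. The enzyme ACSS2 turns acetate into acetyl-CoA, and NLS usually stands for a nuclear localisation signal. The labels give no strain, age or sex of the mice, do not say how the genotypes were made, and do not say whether a library came from a single mouse or a pool. Group differences below are ACSS2NLS minus EV.

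TGF-beta 1 is secreted in a latent form and has to be released before it can bind. The active ligand binds the type II receptor TGFBR2, which recruits and phosphorylates the type I receptor TGFBR1. TGFBR1 in turn phosphorylates SMAD2 and SMAD3, which join SMAD4 and enter the nucleus to regulate genes. SMAD7 blocks the receptor, while SKI, SKIL and TGIF1 hold SMAD complexes in a repressive state. In tumours, TGF-beta is known to restrain cytotoxic T cells and to favour tissue residency.

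The sequences upstream of 3 of these genes are shown, chosen by the levels given below. Ski and Tgfbr2 are the pair whose EV and ACSS2NLS libraries did not overlap, and Tgif1 varied most between libraries among the genes above 1 FPKM. Whether the levels follow these sequences was not tested. They come from RefSeq promoter entries (build GRCm38.p6), which matched the start of the counted transcript for 6 of the 10 genes. Each is read 5′ to 3′ on the strand of the gene and ends before the first annotated exon base, and capitals mark CAGAC, a short sequence that SMAD3 and SMAD4 can bind, searched on both strands as CAGAC and GTCTG. Of the 250 bases before the start site, the 14 nearest it are not printed for Tgif1, nor the 57 nearest it for Ski. Positions and shares below refer to all 250 bases.
Tgfbr2 (chr9:116175364-116175613, minus strand): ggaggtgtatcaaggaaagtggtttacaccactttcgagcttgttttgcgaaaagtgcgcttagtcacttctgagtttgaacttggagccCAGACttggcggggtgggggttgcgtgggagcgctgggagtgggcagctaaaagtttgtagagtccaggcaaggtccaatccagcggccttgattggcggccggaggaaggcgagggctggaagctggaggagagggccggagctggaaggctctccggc
Tgif1 (chr17:70853547-70853782, minus strand): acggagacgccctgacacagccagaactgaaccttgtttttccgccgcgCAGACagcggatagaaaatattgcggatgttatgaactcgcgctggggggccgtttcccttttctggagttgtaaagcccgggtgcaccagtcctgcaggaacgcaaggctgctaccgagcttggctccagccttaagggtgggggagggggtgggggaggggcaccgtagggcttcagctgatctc
Ski (chr4:155222593-155222785, minus strand): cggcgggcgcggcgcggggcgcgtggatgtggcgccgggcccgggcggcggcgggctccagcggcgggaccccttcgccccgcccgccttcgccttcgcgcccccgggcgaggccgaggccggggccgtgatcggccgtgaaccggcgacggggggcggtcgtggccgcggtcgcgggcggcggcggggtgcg
CAGAC begins 160 bases before the start site in Tgfbr2 and 201 bases before it in Tgif1. In the 250 bases before the start site it was found in neither direction for Ski, Tgfb1, Tgfbr1 or Smad3. Of 32851 RefSeq promoter windows of that length, 42.2% hold it, so a match is common. The longer palindrome GTCTAGAC, present in 0.167% of the windows, was in none of the 6. The Ski window was the richest in G and C, at 87.6% of its 250 bases, against 58.4% for Tgfbr2 and 59.6% for Tgif1.

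The libraries held 46000000 to 49300000 tags, to the nearest 100000. Acss2 was at 3.66 and 3.92 FPKM in EV, against 80.7 and 86.3 FPKM in ACSS2NLS, which matched the labels. FPKM scale the tags of a gene by its exon length and by the total tags of the library, so levels can be compared between genes. CD8+ T cell markers were high everywhere (Cd8a at 145 to 186 FPKM, Cd3e at 315 to 346 FPKM). Transcripts of other cells were present too. The summed level of 18 myeloid markers was 60.4 and 491 FPKM in EV replicates 1 and 2 and 159 and 798 FPKM in ACSS2NLS replicates 1 and 2, with S100a9 at 0 in ACSS2NLS replicate 1 and no other at 0. Of the 15 with a mean of at least 1 FPKM, 11 had a higher and 4 a lower mean in ACSS2NLS. The groups did not overlap for 3 of the lower ones, S100a8, S100a9 and Cd14, as for 18.1% of all genes tested. S100a8 was at 3.21 and 24.4 FPKM in EV, against 0.053 and 0.802 FPKM in ACSS2NLS. The sum of 9 melanoma markers was 5.49, 38.5, 11.2 and 139 FPKM in the same order, with none at 0. In bulk RNA such as this, fewer cells of a type and less RNA per cell cannot be told apart.

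None of the 10 genes differed between the groups past the threshold. Of the 9 whose mean level reached 1 FPKM, limma-trend on log2(FPKM + 1) called 0 higher and 0 lower at an adjusted p under 0.05, as did limma without a trend. Across all 9810 genes tested 2 passed, which is 0.0204%: Acss2 itself and Acss2os, whose exons share 335 bases with those of Acss2 on the opposite strand. At an unadjusted p under 0.05, 1 of the 9 genes was lower, Ski, and 0 were higher, against 2.87% and 3.10% of all genes. The ACSS2NLS libraries lay below both EV libraries for 2 of the 9, Ski and Tgfbr2, and above both for 0, where the shares over all genes were 18.1% and 19.3%. The mean was lower in ACSS2NLS for 8 of the 9 and higher for Smad3 alone, while 46.8% of all genes had a lower mean. The median difference of the 9 genes was -0.17 on the log2 scale, beside 0.015 for all genes tested; without EV replicate 1 the median of the 9 was -0.017, with 6 of them lower, and without ACSS2NLS replicate 1 it was -0.076.

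The levels of these genes spanned a wide range within the same libraries. Tgfb1 was the most abundant at a mean of 39.2 FPKM, higher than all but 3.97% of the genes in the table. Tgif1 and Tgfbr2 followed at 21.7 and 20.4 FPKM and could not be ordered, since each was the higher of the pair in 2 of 4 libraries. Smad4 at 13.9 FPKM and Ski at 8.80 FPKM came next. Smad4 was below Tgfbr2 in every library, but above Tgif1 in ACSS2NLS replicate 2 (14.41 against 14.38 FPKM). Ski was apart from Smad4 and Smad7 in every library. Smad7, Skil and Smad2 lay close together at 4.17, 3.91 and 3.52 FPKM, with overlapping ranges. Smad3 was lower at 2.13 FPKM, and Tgfbr1 was the lowest at 0.854 FPKM. HOMER counts a single transcript per gene, so these levels hold for the transcript kept.

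**Figure D1:**
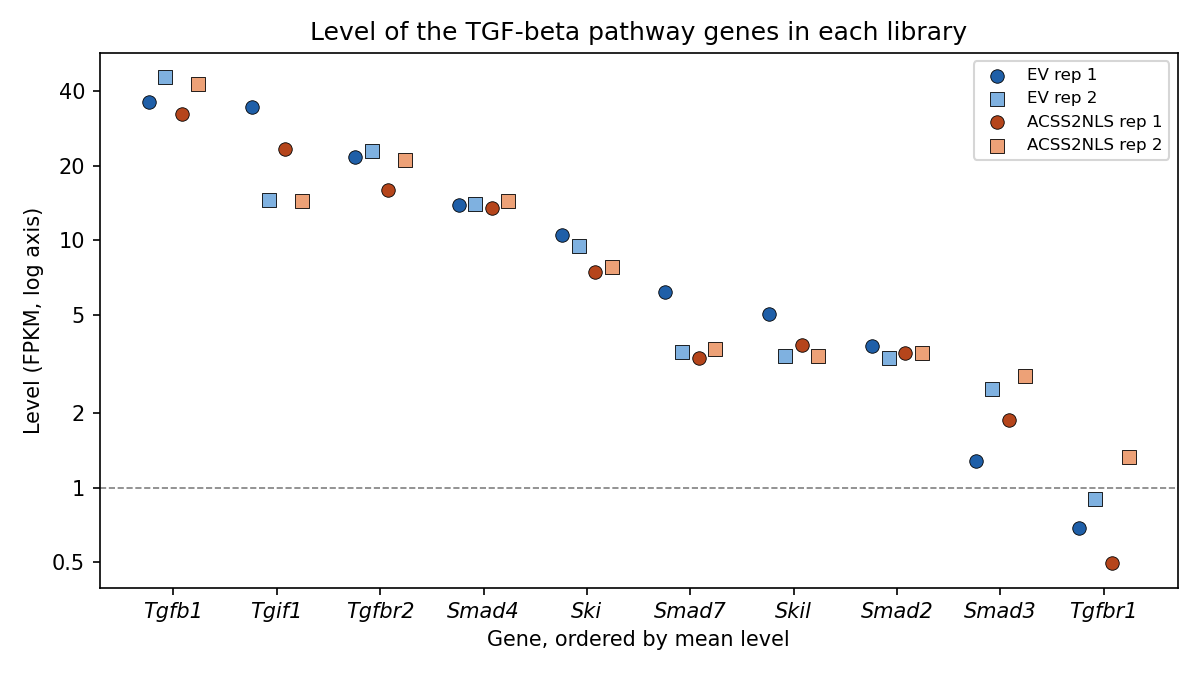
Level in FPKM (log axis) of the 10 genes in each library, ordered by mean; circles and squares are replicates 1 and 2, blue is EV and orange is ACSS2NLS, and the dashed line is 1 FPKM. Both ACSS2NLS points of Ski and of Tgfbr2 lie below both EV points, while EV replicate 1 stands above the other libraries for Tgif1, Smad7 and Skil.

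Tgfb1 encodes the ligand (NM_011577; mm10 chromosome 7, 25687002 to 25705077, plus strand). It was at 36.0 and 45.4 FPKM in EV replicates 1 and 2, against 32.3 and 42.8 FPKM in ACSS2NLS replicates 1 and 2. The groups overlapped, and in each group replicate 2 was the higher library. The difference was -0.12 ± 0.19 (SE, n = 2 per group; 95% interval -0.59 to 0.35; limma-trend, adjusted p = 0.92). It turned to 0.047 without EV replicate 2 and to 0.081 without ACSS2NLS replicate 1. The summed myeloid markers were also higher in replicate 2 of each group, and macrophages and other cells are known to make TGF-beta 1; the part of such cells in the Tgfb1 level was not tested. Among 6 platelet markers, platelets being a rich source of the ligand, Pf4 was at 0.187 and 4.77 FPKM in EV, against 0.457 and 7.13 FPKM in ACSS2NLS, and each of the other 5 stayed at or below 0.211 FPKM in every library.

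The type II receptor gene was far more abundant than the type I receptor gene. Tgfbr2 (NM_029575; chromosome 9, 116087695 to 116175363, minus strand) was at 21.6 and 22.9 FPKM in EV, against 15.9 and 21.1 FPKM in ACSS2NLS. Both ACSS2NLS libraries were below both EV libraries, but ACSS2NLS replicate 2 was close to EV replicate 1. The exact 95% Poisson intervals of those 2 libraries, 20.5 to 21.7 FPKM and 21.0 to 22.2 FPKM, overlapped. The difference was -0.27 ± 0.16 (SE, n = 2 per group; 95% interval -0.67 to 0.13; limma-trend, adjusted p = 0.822). Without ACSS2NLS replicate 1, the library with the lowest level, it was -0.076, and without ACSS2NLS replicate 2 it was -0.46.

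Tgfbr1 (NM_009370; chromosome 4, 47353222 to 47414924, plus strand), the kinase that phosphorylates SMAD2 and SMAD3, was at 0.686 and 0.905 FPKM in EV, against 0.496 and 1.33 FPKM in ACSS2NLS. The ACSS2NLS libraries held both the lowest and the highest level of the 4. These levels rest on 181, 256, 139 and 368 tags. The exact 95% Poisson intervals of the ACSS2NLS libraries, 0.417 to 0.586 FPKM and 1.19 to 1.47 FPKM, did not overlap. These intervals treat tags as independent, so they may be too narrow for amplified RNA. With a mean below 1 FPKM the gene was not among those tested; with no filter its difference was 0.06 (limma-trend, adjusted p = 0.969). Tgfbr2 exceeded Tgfbr1 by 31.5-fold and 25.3-fold in EV and by 32.0-fold and 15.9-fold in ACSS2NLS.

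Among the signal-carrying SMADs, Smad4 was the steadiest of the 10 genes. Smad4, the partner shared by all SMAD complexes (NM_008540; chromosome 18, 73639013 to 73703741, minus strand), was at 13.9 and 14.0 FPKM in EV, against 13.4 and 14.4 FPKM in ACSS2NLS. The EV libraries lay between the ACSS2NLS libraries, and the difference was -0.0034 ± 0.11 (95% interval -0.29 to 0.28; limma-trend, adjusted p = 0.999). Smad2, a direct substrate of the receptor (NM_010754; chromosome 18, 76241701 to 76311747, plus strand), was at 3.73 and 3.33 FPKM in EV, against 3.50 and 3.51 FPKM in ACSS2NLS. Here the ACSS2NLS libraries fell inside the EV range, with a difference of -0.0066 ± 0.15 (95% interval -0.37 to 0.36, limma-trend, adjusted p = 0.997). Directions this near 0 turned when a library was left out, for Smad4 to 0.0017 without EV replicate 2 and 0.045 without ACSS2NLS replicate 1, and for Smad2 to 0.057 without EV replicate 1.

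Smad3, the other receptor substrate and the one that binds DNA directly, was less abundant than Smad2 in every library (NM_016769; chromosome 9, 63646767 to 63757994, minus strand). It was at 1.29 and 2.52 FPKM in EV, against 1.87 and 2.84 FPKM in ACSS2NLS. The groups overlapped, and replicate 2 was the higher library in each. The ratio of Smad2 to Smad3 was 2.90 and 1.32 in EV and 1.87 and 1.24 in ACSS2NLS. The difference of Smad3 was 0.23 ± 0.27 (95% interval -0.46 to 0.91; limma-trend, adjusted p = 0.888), and it turned to -0.083 without EV replicate 1 and was 0.019 without ACSS2NLS replicate 2.

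Smad7, the feedback inhibitor of the receptor that TGF-beta itself induces, was high in a single library (NM_001042660; chromosome 18, 75367365 to 75395934, plus strand). It was at 6.17 FPKM in EV replicate 1, and at 3.54 FPKM in EV replicate 2 and 3.35 and 3.64 FPKM in ACSS2NLS. EV replicate 2 lay between the ACSS2NLS libraries, so the groups overlapped. The difference was -0.35 ± 0.24 (95% interval -0.96 to 0.26; limma-trend, adjusted p = 0.834), and it was -0.017 without EV replicate 1 and -0.68 without EV replicate 2.

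Ski was the gene of this set with the smallest unadjusted p. It encodes a nuclear repressor that binds SMADs and brings in histone deacetylase complexes (NM_011385; chromosome 4, 155154075 to 155222535, minus strand). Its level was 10.4 and 9.51 FPKM in EV, against 7.42 and 7.82 FPKM in ACSS2NLS. Both ACSS2NLS libraries lay below both EV libraries. The EV mean was 9.98 ± 0.668 FPKM and the ACSS2NLS mean 7.62 ± 0.281 FPKM (SD, n = 2 each), 1.31-fold higher in EV. The difference was -0.35 ± 0.13 (SE; 95% interval -0.66 to -0.032), with an unadjusted p = 0.0363 that did not pass over all genes (limma-trend, adjusted p = 0.81). It ranged from -0.41 to -0.29 whichever library was left out. As the groups did not overlap, leaving out 1 library could not turn its direction.

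The other repressor genes varied more between the libraries of EV than between the group means. Skil, which encodes the SKI relative SnoN, itself a known TGF-beta target (NM_001271772; chromosome 3, 31095058 to 31122923, plus strand), was at 5.04 and 3.42 FPKM in EV, against 3.79 and 3.40 FPKM in ACSS2NLS. Its EV replicate 1 was the high library, and the other EV library lay within the ACSS2NLS range. The difference was -0.17 ± 0.20 (95% interval -0.67 to 0.32; limma-trend, adjusted p = 0.884), and it turned to 0.053 without EV replicate 1 and was -0.40 without EV replicate 2. Ski exceeded Skil in every library, by 2.07-fold and 2.78-fold in EV and by 1.96-fold and 2.30-fold in ACSS2NLS.

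Tgif1, a homeodomain repressor of SMAD2 and SMAD3 (NM_001164074; chromosome 17, 70844205 to 70853532, minus strand), was at 34.3 and 14.5 FPKM in EV, against 23.4 and 14.4 FPKM in ACSS2NLS. Replicate 1 was the high library in each group, and the ACSS2NLS range lay almost wholly within the EV range. The EV libraries differed 2.36-fold and the ACSS2NLS libraries 1.63-fold, more than the 1.29-fold between the group means. The difference was -0.27 ± 0.42 (95% interval -1.34 to 0.79; limma-trend, adjusted p = 0.917). It turned to 0.32 without EV replicate 1 and to 0.058 without ACSS2NLS replicate 2, and was -0.87 without EV replicate 2 and -0.61 without ACSS2NLS replicate 1.

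**Figure D2:**
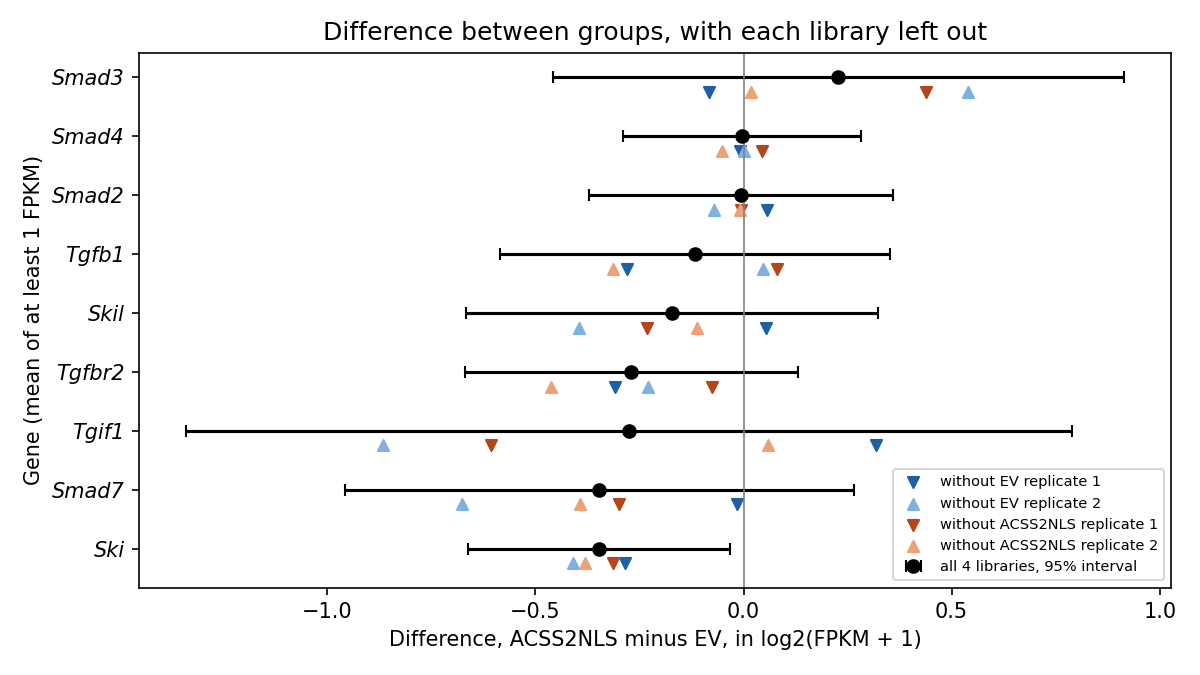
Difference between the groups in log2(FPKM + 1) for the 9 genes whose mean level reached 1 FPKM; black points with bars are the limma-trend estimates with 95% intervals, and coloured triangles the estimates with 1 library left out. Ski has an interval that does not reach 0 (-0.66 to -0.032). Its triangles lie on a single side, as do those of Tgfbr2 and Smad7, while those of Tgif1 run from -0.87 to 0.32. For Ski and Tgfbr2, whose groups did not overlap, leaving out 1 library could not turn the direction.

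Libraries of the same group often differed by more than Poisson counting of independent tags would give. The exact 95% Poisson intervals of the EV libraries did not overlap for 9 of the 10 genes, Smad4 being the exception, and those of the ACSS2NLS libraries did not overlap for 5, namely Tgfb1, Tgfbr1, Tgfbr2, Smad3 and Tgif1. The intervals rest on 139 to 5310 tags per gene and library and cover Poisson counting of tags only. Amplified tags are not independent molecules, so the true counting error may be wider. Replicate 2 was higher than replicate 1 in both groups for 5 of the 10 genes, the ligand gene, both receptor genes, Smad3 and Smad4, as for 34.9% of all genes tested. Replicate 1 was higher in both groups for Skil and Tgif1, as for 26.5% of all genes. For Smad2, Smad7 and Ski the order differed between the groups. On the log2 scale and relative to its mean over the libraries, the myeloid list stood at -1.14 in EV replicate 1 and 0.93 in EV replicate 2, and at -0.64 in ACSS2NLS replicate 1 and 0.85 in ACSS2NLS replicate 2. The list of CD8+ T cell markers stood at 0.17, -0.084, 0.13 and -0.22 in the same order. Their part in the levels of these genes was not tested. Markers of fibroblasts and endothelial cells, of which 8 of 8 were in the table, summed to 8.61 and 14.4 FPKM in EV and to 17.5 and 18.5 FPKM in ACSS2NLS, with Col3a1, Dcn and Pdgfrb at 0 in EV replicate 1 and Cdh5 at 0 in ACSS2NLS replicate 2. The sums of the groups did not overlap, in the opposite direction to Ski and Tgfbr2. Pecam1 was most of the sum in every library, at 8.50 and 9.28 FPKM in EV, against 9.22 and 10.2 FPKM in ACSS2NLS. It was among the 4 of 8 markers that overlapped between the groups. Of the 4 markers with a mean of at least 1 FPKM, the ACSS2NLS libraries lay above both EV libraries for 2. The share over all genes tested was 19.3%. The part of such cells in the differences of Ski and Tgfbr2 was not tested.

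**Figure D3:**
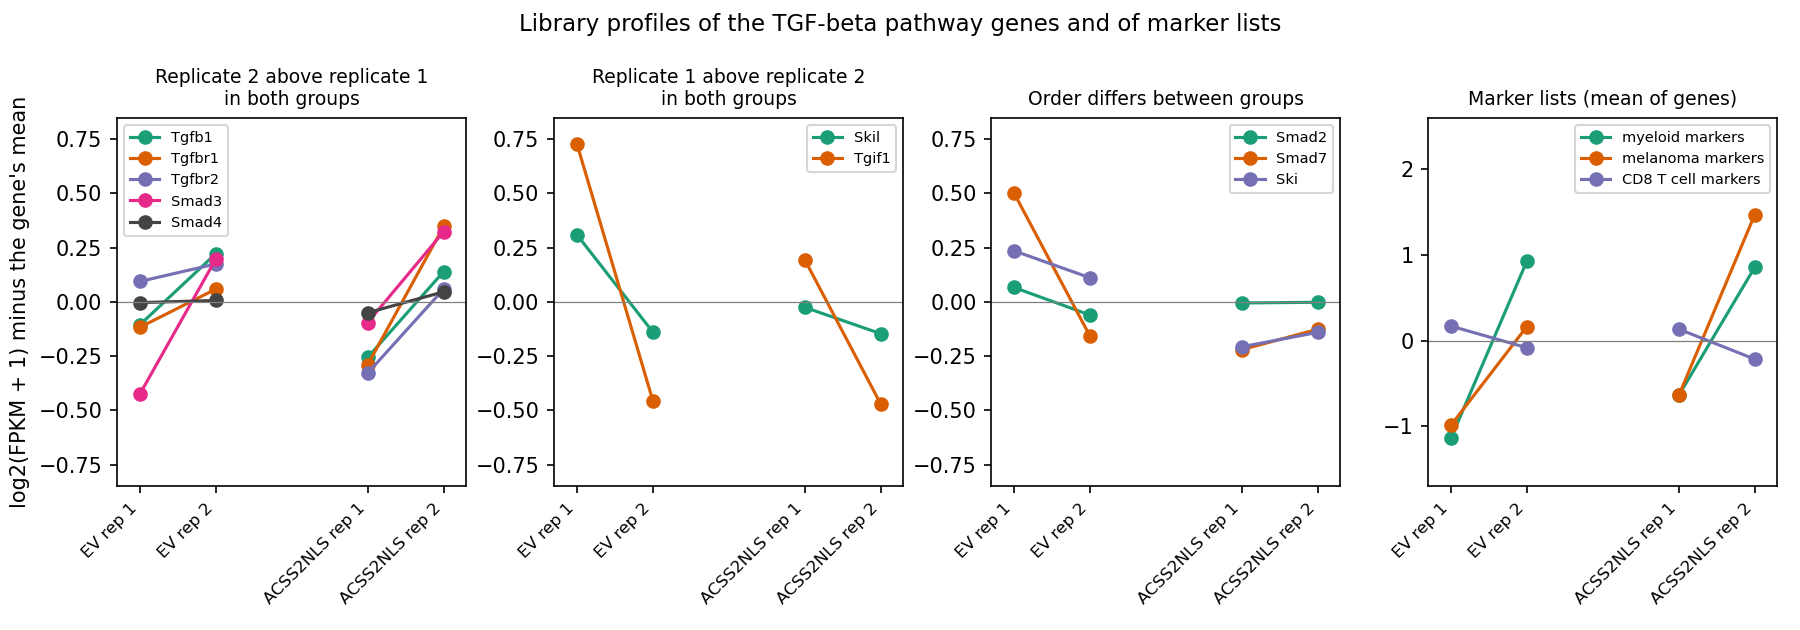
Level of each gene in each library as log2(FPKM + 1) minus its mean over the 4 libraries, in panels by the order of the replicates, with marker lists (mean of their genes, wider axis) at the right; lines join the libraries of a group. Tgif1 runs from 0.73 in EV replicate 1 to -0.47 in ACSS2NLS replicate 2, and the myeloid markers are above 0 in replicate 2 of both groups.

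None of the tested genes around this core passed the threshold either. Of 54 further genes of the pathway (ligand activation, other receptors, other SMADs, signal regulators and nuclear partners), 29 reached a mean level of 1 FPKM. Of these 12 were higher and 17 lower in mean, with a median difference of -0.029. In either direction 0 passed (limma-trend), where 0.0204% of all genes tested did. At an unadjusted p under 0.05, 1 was lower and 0 were higher, against 2.87% and 3.10% of all genes. The lower gene was Ppm1a, a phosphatase reported to act on SMAD2 and SMAD3, at 11.1 and 12.5 FPKM in EV, against 9.29 and 9.28 FPKM in ACSS2NLS (difference -0.31 ± 0.12; limma-trend, adjusted p = 0.81). Its groups did not overlap. Smurf1, a ubiquitin ligase that SMAD7 brings to the receptor, was at 3.61 and 4.22 FPKM in EV, against 2.79 and 3.31 FPKM in ACSS2NLS, again without overlap (-0.28 ± 0.16, adjusted p = 0.821). Smurf2, its relative, was at 1.01 and 0.928 FPKM in EV, against 1.16 and 1.06 FPKM in ACSS2NLS, without overlap in the other direction (0.098 ± 0.17, adjusted p = 0.926). Of the 29 genes, the ACSS2NLS libraries lay below both EV libraries for 7 and above both for 4, where the shares over all genes were 18.1% and 19.3%. Usp4, a deubiquitinase of the type I receptor, had a difference of -0.12 ± 0.11 (adjusted p = 0.862).

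Genes that hold or release latent TGF-beta did not move one way. Of 13 listed, 6 were tested, with 2 higher and 4 lower in mean and a median of -0.15; this median turned to 0.27 without EV replicate 2 and to 0.30 without ACSS2NLS replicate 1, and without ACSS2NLS replicate 2 it was -0.42. Nrros, which tethers latent TGF-beta on myeloid cells, was at 18.2 and 24.4 FPKM in EV, against 23.8 and 34.9 FPKM in ACSS2NLS (0.44 ± 0.23; limma-trend, adjusted p = 0.81). With a library left out the difference of Nrros ran from 0.17 (without ACSS2NLS replicate 2) and 0.23 (without EV replicate 1) to 0.70 (without ACSS2NLS replicate 1). Lrrc32, which encodes GARP, the tether known from regulatory T cells, was at 0.731 and 1.12 FPKM in EV, against 1.25 and 1.35 FPKM in ACSS2NLS, without overlap (0.26 ± 0.19, adjusted p = 0.835), and its difference was 0.12 without EV replicate 1 and 0.41 without EV replicate 2. Ltbp3, a matrix protein that binds latent TGF-beta, was at 1.48 and 1.14 FPKM in EV, against 0.675 and 1.04 FPKM in ACSS2NLS (-0.31 ± 0.20, adjusted p = 0.822), and its difference was -0.17 without ACSS2NLS replicate 1 and -0.21 without EV replicate 1. The other ligand genes were scarce, with Tgfb3 at 0.152 to 0.858 FPKM and Tgfb2 at no more than 0.057 FPKM.

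All 10 other receptor genes of the family had a mean below 1 FPKM, the highest single value being 2.16 FPKM for Acvrl1 in ACSS2NLS replicate 2. Of the SMADs outside the core, Smad1 of the bone morphogenetic protein branch was the only one of 4 that was tested. It was at 3.38 and 3.29 FPKM in EV, against 3.15 and 2.28 FPKM in ACSS2NLS (-0.23 ± 0.18; limma-trend, adjusted p = 0.835). The difference of Smad1 was -0.063 without ACSS2NLS replicate 2, the lowest library, and -0.40 without ACSS2NLS replicate 1. Smad6, the other inhibitory SMAD, did not exceed 0.042 FPKM in any library, so of the inhibitory pair only Smad7 was above 1 FPKM. The nuclear partners had 5 higher and 5 lower of 10 tested and a median of 0.034, which was 0.12 without EV replicate 1 and turned to -0.11 without ACSS2NLS replicate 2. Runx3, a T cell partner of SMADs, had a difference of 0.094 ± 0.12, Hdac1 one of -0.098 ± 0.12 and the SKI-binding coregulator gene Snw1 one of -0.091 ± 0.11 (adjusted p = 0.892, 0.888 and 0.885, limma-trend). Leaving out a library moved these 3 differences, and those of Usp4 and Smurf2, by about 1.5 times or more, with ranges of -0.17 to -0.025 for Hdac1, -0.19 to -0.056 for Usp4, and values of 0.055 for Runx3 (without EV replicate 2), -0.047 for Snw1 (without EV replicate 1) and 0.065 for Smurf2 (without ACSS2NLS replicate 1).

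Known target genes of TGF-beta gave a mixed picture. Of 17 genes that TGF-beta is known to induce, 16 were in the table and 8 were tested, 3 of them (Smad7, Skil and Tgif1) from the core set. Of the other 5 tested, 1 was higher and 4 were lower in mean with a median of -0.093, and 0 passed (limma-trend). At an unadjusted p under 0.05, 2 of the 5 were lower, against 2.87% of all genes. Itgae, which encodes the residency integrin CD103 and is a classic target in CD8+ T cells, was below the filter, at 0.492 and 1.23 FPKM in EV, against 0.663 and 1.31 FPKM in ACSS2NLS. Pmepa1 and Ldlrad4, feedback genes of the receptor, were low as well, at 0.303 to 0.475 FPKM and 0.577 to 0.808 FPKM. Cdkn1a, the cell cycle inhibitor p21, was at 30.2 and 18.5 FPKM in EV, against 10.4 and 13.7 FPKM in ACSS2NLS, with no overlap between the groups (-0.93 ± 0.26; limma-trend, adjusted p = 0.81), and its difference was -0.59 without EV replicate 1. Itga1, an integrin chain of resident T cells, was at 2.93 and 2.43 FPKM in EV, against 1.73 and 1.72 FPKM in ACSS2NLS, also without overlap (-0.43 ± 0.16, adjusted p = 0.81). Both genes have other known regulators.

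Of 14 genes that TGF-beta is known to lower in CD8+ T cells, all were tested, 9 were higher and 5 lower in mean, and 0 passed (limma-trend), although at an unadjusted p under 0.05 there were 2 higher and 2 lower, where the shares over all genes were 3.10% and 2.87%. The median was 0.24, and 0.13, 0.087 and 0.085 without EV replicate 1, EV replicate 2 and ACSS2NLS replicate 1. Eomes, a transcription factor of memory and exhausted cells, was at 4.23 and 5.52 FPKM in EV, against 9.34 and 9.16 FPKM in ACSS2NLS (0.81 ± 0.16; limma-trend, adjusted p = 0.775). S1pr1, the egress receptor gene, was at 1.29 and 1.66 FPKM in EV, against 3.45 and 2.89 FPKM in ACSS2NLS, while Id2, a regulator of effector cells, went the other way, at 364 and 318 FPKM in EV, against 217 and 175 FPKM in ACSS2NLS (adjusted p = 0.775 for each). All 3 had groups that did not overlap, but they were picked for the smallest unadjusted p in the list. Of the 14 genes, the ACSS2NLS libraries lay above both EV libraries for 4 and below both for 3. The shares over all genes were 19.3% and 18.1%. Gzmb, the other gene lower at an unadjusted p under 0.05 (limma-trend), was at 1334 and 890 FPKM in EV, against 706 and 528 FPKM in ACSS2NLS. Members of the list thus lay on both sides of 0, from -0.83 for Gzmb to 0.81 for Eomes.

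**Figure D4:**
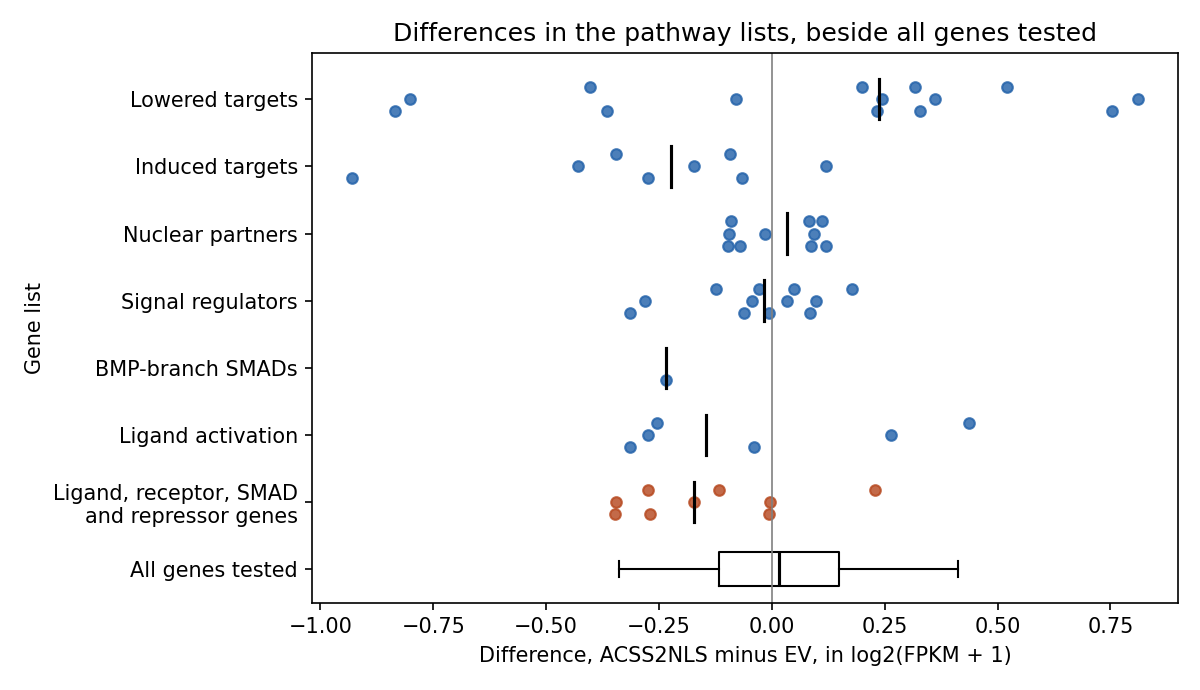
Difference between the groups in log2(FPKM + 1) of each tested gene of the core set (orange) and of the pathway lists (blue), with black bars at the list medians; the box shows the quartiles and median of all 9810 genes tested and its whiskers the 5th and 95th percentiles. The core genes lie between -0.35 and 0.23, and the genes that TGF-beta is known to lower spread from -0.83 to 0.81.

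The genes nearest to Ski in profile were looked up among all genes tested. Ski and Smad7 had differences of nearly the same size (-0.347 and -0.346), and Smad7 had the larger one with a pseudocount of 0.1 or 0.5 and with quantile normalization. Over the 4 libraries the smallest mean absolute differences in centred log2(FPKM + 1) among all genes tested were those of Herc6 (0.0111), Anapc5 (0.0135) and Add1 (0.0148). Herc6, an interferon-inducible ubiquitin ligase, was at 5.84 and 5.24 FPKM in EV, against 4.12 and 4.24 FPKM in ACSS2NLS. Anapc5, a subunit of the anaphase-promoting complex, was at 89.2 and 82.8 FPKM in EV, against 65.4 and 70.3 FPKM in ACSS2NLS. Add1, which encodes the membrane skeleton protein adducin, was at 52.1 and 47.3 FPKM in EV, against 38.0 and 38.7 FPKM in ACSS2NLS. None of the 3 passed (limma-trend, adjusted p = 0.81 for each). Both ACSS2NLS libraries lay below both EV libraries for 1774 of the 9810 genes tested, so this order of the groups was common. The 3 genes were picked as the nearest, and how many others lay about as near was not counted.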

How the data were processed

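RNA from CD8+ T cells was sequenced in 2 EV and 2 ACSS2NLS libraries, made with the SMART-Seq v4 kit per the labels' protocols. STAR 2.5.3a, HOMER and mm10 are named in the submitters' processing notes. Sense-strand tags over exons were counted by HOMER for 1 transcript per gene and deposited as FPKM, per the file headers. No source used here states the strandedness of the libraries. No GENCODE M21 exon of the 10 genes shares a base with another gene. Columns named Acss2WT and Acss2OE were read as EV and ACSS2NLS. The header names 8 tag directories and the table holds 4 value columns, all used.

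FPKM are not counts, so log2(FPKM + 1) of genes whose mean reached 1 FPKM was compared with limma-trend (limma 3.58.1, R 4.3.3), two-sided, Benjamini-Hochberg adjusted over the 9810 genes, threshold 0.05. Total tags came from FPKM steps: times length, 100% of low values were whole within 0.1. Exact Poisson intervals use those tags. With 2 libraries per group an exact permutation test cannot go below p = 0.333, and the p-values reflect only how these libraries vary, which may be technical. Genes named outside the 10 were up to 3 per pathway list with the smallest unadjusted p, 8 fixed genes, and the 3 nearest Ski in profile. Acss2os was named because it passed, and others as the range or extreme of a list. Single markers of cell types were named without a set rule. Thbs1, Tgfbi, Csf1r and Acvrl1 were described after their values were seen. The 10 genes and the lists were chosen with earlier results of these data known. Alternatives covered the pseudocount, filter, scaling, trend, replicate block and each library left out.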

Additional observations from a re-analysis of the deposited data

How the results depend on the processing

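Of 104 estimates of the core genes under the alternatives, 95 kept their direction and none passed the threshold. The 9 that turned all came from leaving out a library, with ranges of -0.40 to 0.053 for Skil, -0.070 to 0.057 for Smad2, -0.083 to 0.54 for Smad3, -0.051 to 0.045 for Smad4, -0.31 to 0.081 for Tgfb1 and -0.87 to 0.32 for Tgif1; the cause was not tested. Over the same fits the core set had 6 to 7 genes lower and 2 to 3 higher in mean, a median of -0.23 to -0.017, and 0 to 9 genes of all tested were called lower. With a mean of at least 5 FPKM, which left fewer genes, 5 core genes were lower and 0 higher, with a median of -0.27. With no filter, which adds Tgfbr1, 2 were higher, and 1 gene of all tested was called higher.

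The labels share replicate numbers without saying what they mark. Deviations of the libraries numbered 1 from their group means correlated at 0.58 across 9810 genes. With the replicate block, which leaves a single residual degree of freedom, 229 genes of all tested were called higher and 172 lower, none of them a core gene (Ski, adjusted p = 0.236), and of the pathway lists 2 were called higher (adjusted p = 0.0024 for Eomes and 0.014 for S1pr1) and 3 lower (0.0020 for Cdkn1a, 0.0027 for Gzmb and 0.00067 for Id2). Of the core genes, Tgfbr1 rested on the fewest tags in each library, at 139 to 368.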

Other observations

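Some genes that act on TGF-beta or answer to it varied far more between the libraries of a group than between the groups, and were chosen after their values were seen. Thbs1, which encodes thrombospondin 1, an activator of latent TGF-beta, was at 1.23 and 13.6 FPKM in EV replicates 1 and 2 and at 1.96 and 6.71 FPKM in ACSS2NLS replicates 1 and 2. Tgfbi, an extracellular matrix gene named for its induction by TGF-beta, was at 2.44 and 18.6 FPKM in EV, against 4.16 and 10.9 FPKM in ACSS2NLS. Both were higher in replicate 2 of each group, as was Csf1r, the macrophage growth factor receptor gene, at 1.46 and 11.9 FPKM in EV, against 2.99 and 13.1 FPKM in ACSS2NLS. The receptor gene Acvrl1, known from endothelial cells, was at 0.196 and 0.981 FPKM in EV, against 0.512 and 2.16 FPKM in ACSS2NLS.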
